A study of Homo sapiens with 8 samples.

Results

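LYVE1, KDR, ROBO4, PECAM1, NRP1, NRP2, ACE, TIE1 and TEK are 9 genes whose proteins sit on the surface of endothelial cells, and they were followed here as 9 of the 61544 entries counted in 2 human leukaemia lines. They were chosen by name, and several of them because they were higher after DDX6 knockdown in these same libraries. Their differences between DDX6 shRNA and control are therefore given as a description, with no test. Where any of these genes is said to pass or miss an adjusted p of 0.05, that describes the fit and is not a test of the gene. Most of them are receptors, while PECAM1 is chiefly an adhesion molecule and ACE an enzyme.

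DDX6 is an RNA helicase needed for the assembly of P-bodies, cytoplasmic granules that hold untranslated mRNA. The study addressed the role of RNA storage in P-bodies in myeloid leukaemia, and the experiment described here was RNA sequencing of total RNA after knockdown of DDX6. HEL is an established erythroleukaemia line and MOLM-13 an established monocytic leukaemia line, both labelled as AML from blood. There were 4 groups of 2 libraries: HEL cells given a DDX6 shRNA and labelled as DDX6 knockdown, HEL cells given a control shRNA and labelled WT, and the same pair of groups in MOLM-13. Cells of all 4 groups were infected with an shRNA lentivirus and kept in puromycin. The HEL knockdown columns name 1 hairpin, the MOLM-13 columns name none, and no other hairpin was analysed here.

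Endothelial cells line blood and lymph vessels and share an origin with blood stem cells in the embryo, so several of their surface genes are also used by stem cells, megakaryocytes or monocytes. KDR is the main signalling receptor for VEGF, and the neuropilins NRP1 and NRP2 bind VEGF and class 3 semaphorins as co-receptors. TEK (TIE2) is the tyrosine kinase receptor for angiopoietins, and TIE1 is its relative and partner. ROBO4 is the endothelial roundabout receptor, LYVE1 a hyaluronan receptor of lymphatic endothelium and some macrophages, PECAM1 (CD31) an adhesion molecule of endothelial cells, platelets and monocytes, and ACE the peptidase that makes angiotensin II.

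The libraries held 10719829 to 12093544 counts in HEL and 7888318 to 8174432 in MOLM-13. Levels are given as CPM, where the count is divided by the scaled library size, and 3 counts in 1 library equalled 0.238 to 0.271 CPM in HEL libraries and 0.378 to 0.399 CPM in MOLM-13 libraries. DDX6 itself had 1124 and 1048 counts in HEL DDX6 shRNA libraries, against 2229 and 2150 in HEL control libraries. The MOLM-13 libraries had 516 and 558 DDX6 counts with DDX6 shRNA, against 978 and 966 in control. DDX6 thus fell in HEL by 0.90 on the log2 scale (SE 0.07, adjusted p = 3.54e-14) and in MOLM-13 by 0.80 (SE 0.08, adjusted p = 2.56e-11), both by the quasi-likelihood test of edgeR on 2 libraries per group, adjusted by Benjamini-Hochberg. A list of 10 erythroid and megakaryocytic genes that mark HEL summed to 2159 to 2439 CPM over the HEL libraries and 14.2 to 19.3 CPM over the MOLM-13 libraries, while a list of 10 myeloid genes that mark MOLM-13 gave 164 to 172 CPM over HEL libraries and 6575 to 7941 CPM over MOLM-13 libraries. Whether replicates came from separate cultures is not labelled, so p-values measure only how far these libraries differ among themselves, a spread that may be technical.

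Among the receptors for VEGF and semaphorins, KDR, NRP1 and NRP2 were all higher in HEL with DDX6 shRNA, by a small factor for KDR and a large one for both neuropilins. KDR had 1188 and 1011 counts in HEL DDX6 shRNA libraries, against 839 and 853 in HEL control libraries. Its mean was 96.9 ± 7.69 CPM with DDX6 shRNA and 68.9 ± 3.43 CPM in control (SD, n = 2 each; CPM scaled by TMM, edgeR's trimmed mean of M-values), a log2 fold change of 0.49 ± 0.08 (SE). As here, the error is the SD of 2 libraries for CPM and the SE of the fit for a log2 fold change. Both DDX6 shRNA libraries lay above both controls. In MOLM-13, KDR had 0 and 2 counts with DDX6 shRNA and 2 and 1 in control, so no fold is given and a difference was not detectable at this depth.

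NRP1 was close to the floor in HEL control cells, and among these genes it was second to PECAM1 in MOLM-13. HEL DDX6 shRNA libraries held 44 and 37 counts, against 2 and 2 in HEL control libraries, or 3.57 ± 0.313 CPM against 0.163 ± 0.0062 CPM (SD, n = 2 each). The log2 fold change in HEL was 4.35 ± 0.45, a 20.4-fold difference whose denominator rests on 4 counts. The MOLM-13 counts were 339 and 343 with DDX6 shRNA, against 105 and 91 in control, or 45.1 ± 0.718 CPM against 12.5 ± 1.45 CPM, and a log2 fold change of 1.85 ± 0.13. The groups did not overlap in either line, and the MOLM-13 change rested on many more counts than the HEL change.

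NRP2 differed mainly in HEL. Its counts there were 186 and 159 with DDX6 shRNA, against 15 and 22 in control, with means of 15.2 ± 1.16 CPM with DDX6 shRNA and 1.51 ± 0.461 CPM in control. The log2 fold change was 3.33 ± 0.21. MOLM-13 libraries held 7 and 10 counts with DDX6 shRNA, against 5 and 3 in control, a log2 fold change of 1.12 ± 0.60 that did not pass the threshold. Although those MOLM-13 groups did not overlap, they were separated by 2 counts.

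The angiopoietin receptor pair behaved differently from each other and between lines. TIE1 had 3685 and 3485 counts in HEL DDX6 shRNA libraries, against 3985 and 3794 in HEL control libraries. After scaling these were 316 ± 1.54 CPM with DDX6 shRNA and 317 ± 1.06 CPM in control, with overlapping groups and a log2 fold change of -0.00 ± 0.06. In MOLM-13, TIE1 had 69 and 69 counts with DDX6 shRNA, against 8 and 7 in control, or 9.12 ± 0.0697 against 0.956 ± 0.105 CPM. The log2 fold change in MOLM-13 was 3.24 ± 0.28, a 9.44-fold difference with no overlap. The MOLM-13 DDX6 shRNA libraries still had far fewer TIE1 counts than any HEL library.

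TEK had 268 and 252 counts in HEL DDX6 shRNA libraries, against 221 and 224 in HEL control libraries. The means were 22.9 ± 0.205 CPM with DDX6 shRNA and 18.1 ± 0.862 CPM in control, a log2 fold change of 0.34 ± 0.11. That difference no longer passed the threshold with DESeq2 (0.34), nor without HEL DDX6 shRNA replicate 1 (0.33) or 2 (0.35), nor without HEL control replicate 1 (0.29) or 2 (0.39). In MOLM-13, TEK had 5 and 2 counts with DDX6 shRNA and 2 and 2 in control, too few to place a difference.

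ROBO4 was higher with DDX6 shRNA in both lines. It had 325 and 298 counts in HEL DDX6 shRNA libraries, against 116 and 110 in HEL control libraries, or 27.5 ± 0.735 against 9.20 ± 0.0047 CPM. The log2 fold change in HEL was 1.58 ± 0.13. Counts in MOLM-13 were 7 and 16 with DDX6 shRNA and 0 and 0 in control. Set against a floor of 3 counts over the control group, that was at least 7.96-fold higher in MOLM-13 with DDX6 shRNA, a bound that takes the 23 counts of the knockdown group as exact.

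LYVE1 showed the largest fold among these genes in HEL and was not detectable in MOLM-13. HEL DDX6 shRNA libraries held 116 and 84 counts, against 4 and 4 in HEL control libraries. The means were 8.80 ± 1.69 CPM with DDX6 shRNA and 0.326 ± 0.0124 CPM in control, a log2 fold change of 4.71 ± 0.34, or 26.1-fold. The MOLM-13 libraries held 0 and 0 counts with DDX6 shRNA and 0 and 1 in control, which gives no fold.

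PECAM1 was abundant in both lines and had the largest gain in CPM of the 9 genes. It had 3899 and 4148 counts in MOLM-13 DDX6 shRNA libraries, against 2051 and 2072 in MOLM-13 control libraries, or 532 ± 27.3 against 263 ± 2.15 CPM. That is a gain of 269.5 CPM and a log2 fold change of 1.02 ± 0.06. In HEL it had 3054 and 2771 counts with DDX6 shRNA, against 2578 and 2554 in control, or 257 ± 8.78 against 209 ± 6.57 CPM, a gain of 47.9 CPM and a log2 fold change of 0.30 ± 0.06. The groups did not overlap in either line.

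ACE was higher with DDX6 shRNA in both lines, 4.02-fold in HEL and 6.23-fold in MOLM-13. HEL DDX6 shRNA libraries held 202 and 166 counts, against 55 and 44 in HEL control libraries, with means of 16.2 ± 1.69 CPM with DDX6 shRNA and 4.02 ± 0.480 CPM in control and a log2 fold change of 2.01 ± 0.17. Counts in MOLM-13 were 62 and 77 with DDX6 shRNA, against 15 and 8 in control, with means of 9.20 ± 1.47 CPM with DDX6 shRNA and 1.47 ± 0.653 CPM in control and a log2 fold change of 2.64 ± 0.29. Both knockdown libraries lay above both controls in each line. In bulk RNA, a change in the share of cells that carry a transcript and a change in its amount per cell cannot be told apart, here or for any other gene.

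**Figure D1:**
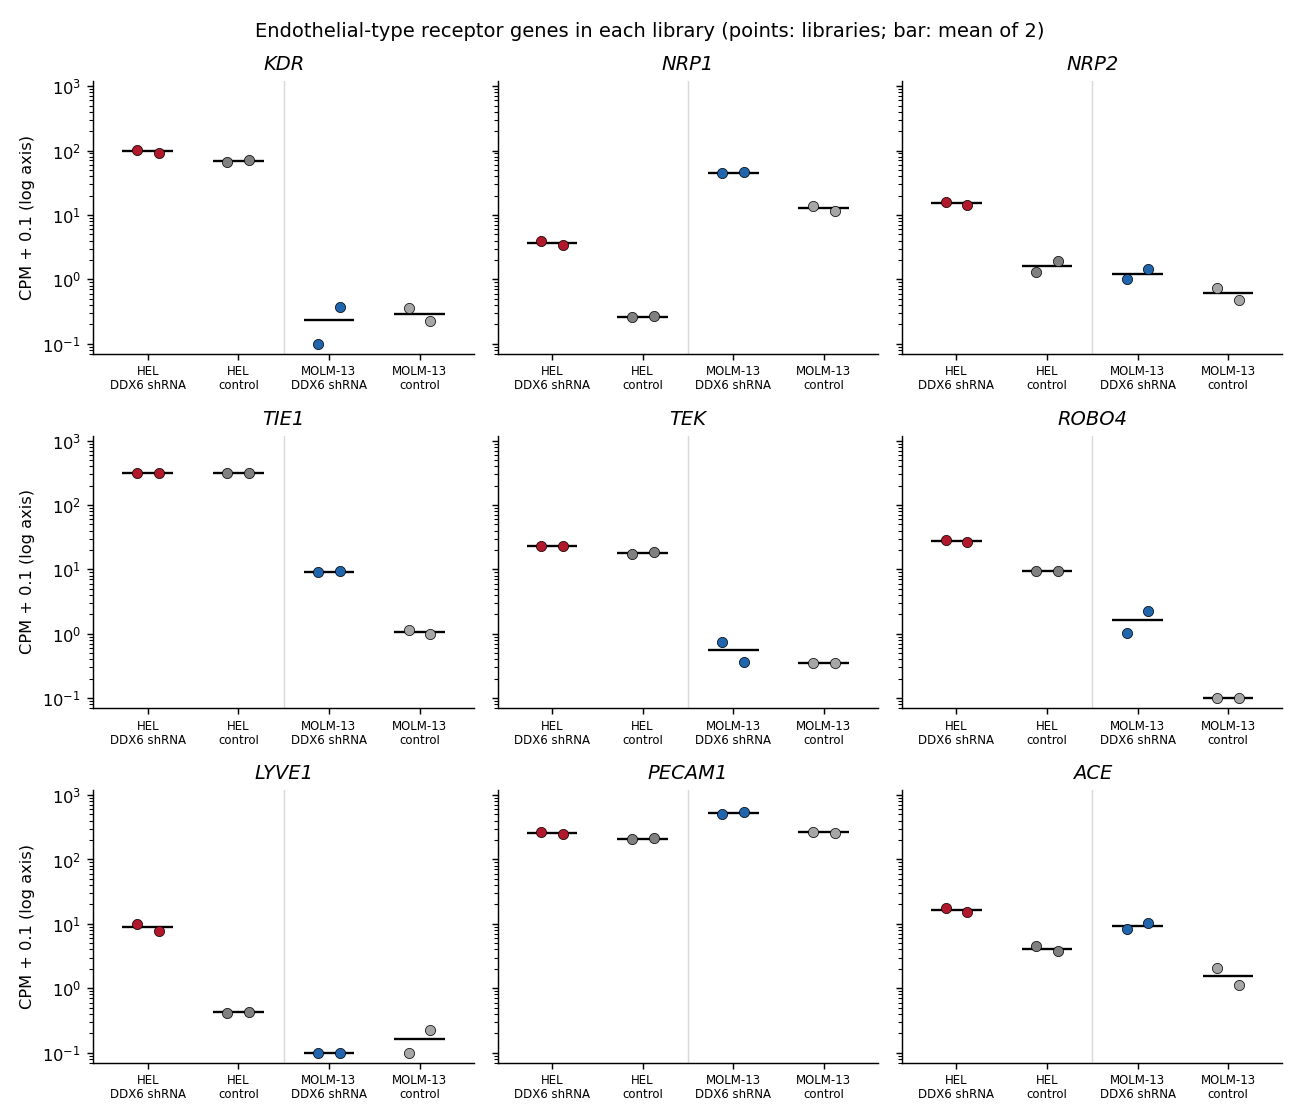
TMM-scaled CPM of the 9 endothelial-type genes in each library (log axis; 0.1 CPM added so that libraries at 0 can be drawn), with DDX6 shRNA libraries left of control libraries and HEL left of MOLM-13; points are libraries. TIE1 sits at 316 CPM with DDX6 shRNA and 317 CPM in control in HEL, while in MOLM-13 it sits at 9.12 CPM with DDX6 shRNA and 0.956 CPM in control.

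All 9 genes passed the filter on low counts that was applied over the 4 groups together, so all were in the fit. Within MOLM-13, however, only PECAM1, NRP1, ACE and TIE1 had 10 counts or more in at least 2 libraries. In HEL, 8 of the 9 passed an adjusted p of 0.05 in the higher direction and 0 in the lower, TIE1 being the exception, where 20.7% of the 16499 genes tested passed in the higher direction. In MOLM-13, 5 passed in the higher direction (PECAM1, NRP1, ACE, TIE1 and ROBO4) and 0 in the lower, where 18.1% of all tested genes passed in the higher direction. Because the genes were chosen on these contrasts, nothing is read from those counts. The median log2 fold change of the 9 genes in HEL was 1.58, against 0.03 over all genes tested. In MOLM-13 the fitted median over the 9 genes was 1.12, and over the 7 genes above the floor, with ROBO4 at its bound, 1.85, against 0 over all genes tested. With MOLM-13 fitted alone ROBO4 was filtered out, which left 4 genes in the higher direction.

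The same genes did not differ equally in the 2 lines, and these values too are a description. The MOLM-13 log2 fold change minus the HEL log2 fold change was 3.24 ± 0.29 (SE) for TIE1 and 0.72 ± 0.09 for PECAM1. It was -2.50 ± 0.55 for NRP1 and -2.20 ± 0.74 for NRP2. For ACE it was 0.63 ± 0.38 and for TEK 0.49 ± 0.83, each within about 2 SE of 0. TIE1 and PECAM1 thus had the larger log2 difference in MOLM-13, and both neuropilins in HEL.

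**Figure D2:**
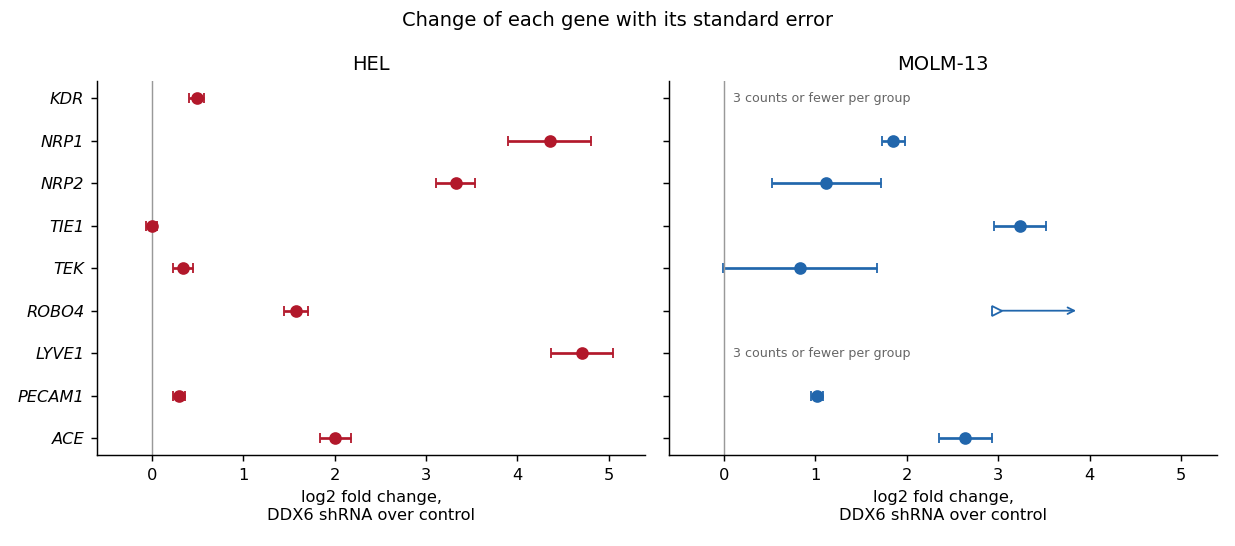
Log2 fold change of each gene, DDX6 shRNA over control, in HEL and in MOLM-13; points are fitted values and bars are 1 SE (edgeR, n = 2 libraries per group), the open triangle is the lower bound of ROBO4 in MOLM-13, and KDR and LYVE1 have no point there for want of counts. LYVE1 stands at 4.71 and NRP1 at 4.35 in HEL, and TIE1 at -0.00 in HEL and 3.24 in MOLM-13.

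Levels of different genes were compared per length, in TPM, computed over the union of each gene's exons. In HEL DDX6 shRNA libraries the order was TIE1 (183 ± 2.40 TPM, SD, n = 2), PECAM1 (128 ± 2.07), KDR (57.1 ± 3.51), TEK (18.5 ± 0.167), ROBO4 (15.1 ± 0.132), LYVE1 (9.67 ± 1.69), ACE (7.49 ± 0.645), NRP2 (4.23 ± 0.247) and NRP1 (1.20 ± 0.0837), and no neighbours in that order overlapped. In HEL control libraries the first 5 genes stood in the same order, with TIE1 at 190 ± 2.06 TPM (SD, n = 2), PECAM1 at 108 ± 4.21, KDR at 42.2 ± 2.41, TEK at 15.2 ± 0.835 and ROBO4 at 5.25 ± 0.0420. Below them came ACE at 1.93 ± 0.216, NRP2 at 0.438 ± 0.136, LYVE1 at 0.372 ± 0.0170 and NRP1 at 0.0568 ± 0.0026 TPM, where NRP2 and LYVE1 overlapped. LYVE1 therefore stood just above ACE with DDX6 shRNA, and below ACE and level with NRP2 in control.

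In MOLM-13 a single gene made up most of the summed level. With DDX6 shRNA, PECAM1 stood at 203 ± 9.78 TPM (SD, n = 2), NRP1 at 11.6 ± 0.146, TIE1 at 4.04 ± 0.0174, ACE at 3.26 ± 0.511 and ROBO4 at 0.642 ± 0.358 TPM. TEK (0.285 ± 0.172 TPM), NRP2 (0.240 ± 0.0609) and KDR (0.0599 ± 0.0848) followed, and LYVE1 was at 0. From ROBO4 to NRP2, and again from KDR to LYVE1, neighbours in that order overlapped. In MOLM-13 control libraries PECAM1 stood at 105 ± 3.65 TPM (SD, n = 2), NRP1 at 3.36 ± 0.480, ACE at 0.547 ± 0.256 and TIE1 at 0.443 ± 0.0602, the last pair overlapping. TEK, NRP2, KDR and LYVE1 lay between 0.164 and 0.0545 TPM, and ROBO4 was at 0.

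Summed over the 9 genes, HEL DDX6 shRNA libraries held 428.5 and 420.2 TPM, against 356.9 and 370.3 TPM in HEL control libraries. MOLM-13 DDX6 shRNA libraries held 215.9 and 231.2 TPM, against 112.7 and 106.4 TPM in MOLM-13 control libraries. TIE1 was 43.1% of the sum in HEL with DDX6 shRNA and 52.3% in HEL control, while PECAM1 was 30.2% with DDX6 shRNA and 29.8% in control. PECAM1 was 91.0% of the sum in MOLM-13 with DDX6 shRNA and 95.6% in MOLM-13 control. The genes with the largest folds, LYVE1 and NRP1 in HEL, thus added little to the sums.

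**Figure D3:**
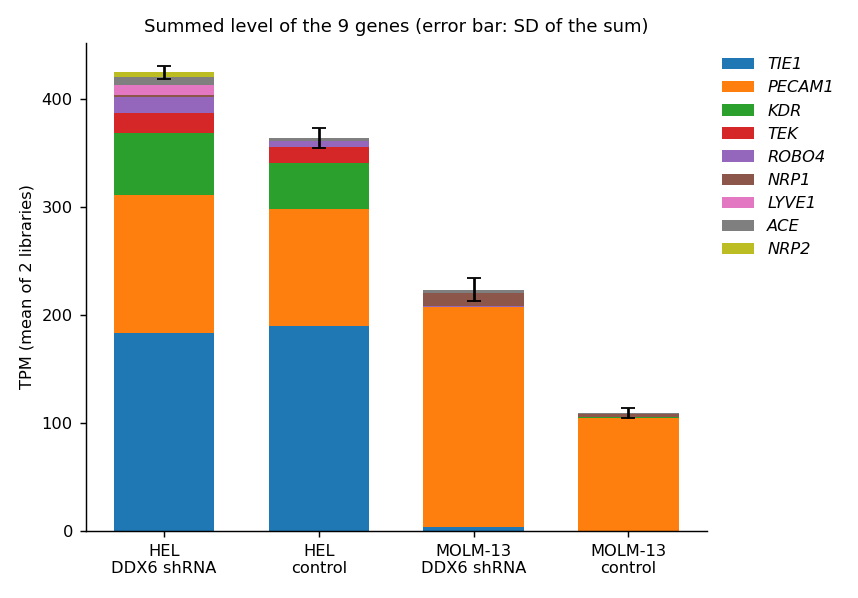
Summed TPM of the 9 genes in each of the 4 groups, stacked by gene, with DDX6 shRNA left of control in each line; bars are means of 2 libraries and error bars the SD of the sum. The HEL bars reach 424 TPM with DDX6 shRNA and 364 TPM in control, and the MOLM-13 bars, nearly all PECAM1, reach 224 TPM with DDX6 shRNA and 109.6 TPM in control.

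The levels of these genes under control shRNA were then compared between the 2 lines. The same control libraries entered the choice of the genes as the reference of each knockdown, so these differences too are a description, with no test. The lines and any other difference between the 2 tables cannot be told apart. Of all 16499 genes tested, 81.2% passed an adjusted p of 0.05 in this comparison (40.8% higher in HEL, 40.4% lower), and 8 of the 9 genes passed, 6 higher and 2 lower in HEL than in MOLM-13, a count from which nothing is read. TIE1 had 3985 and 3794 counts in HEL control libraries and 8 and 7 in MOLM-13 control libraries, a log2 difference of 8.35 ± 0.14, or 327-fold. KDR had 1692 counts in all in HEL control libraries and 3 in MOLM-13 control libraries, a ratio of 360 (exact 95% interval 123 to 1749, counting error only). TEK was 67.7-fold higher in HEL control (log2 6.08 ± 0.32). ROBO4, with 226 counts in HEL control and 0 in MOLM-13 control, was at least 48.1-fold higher in HEL against the floor of 3 counts. These 4 receptors were all much higher in HEL under control shRNA.

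The other genes differed less or in the other direction. ACE was 2.73-fold higher in HEL control than in MOLM-13 control (log2 1.45 ± 0.32). NRP2 was 2.91-fold higher in HEL control (log2 1.54 ± 0.51), but did not pass without HEL control replicate 2 (log2 1.22) or MOLM-13 control replicate 2 (log2 1.26). PECAM1 was lower in HEL control than in MOLM-13 control (log2 -0.33 ± 0.06). NRP1, with 4 counts in all in HEL control and 196 in MOLM-13 control, was far lower in HEL (log2 -6.15 ± 0.34). For LYVE1, 8 counts in HEL control against 1 in MOLM-13 control gave a ratio of 5.11 (0.685 to 226.8), which did not pass.

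The genes lie on 7 chromosomes and, apart from ROBO4 with LYVE1 and ACE with PECAM1, none share one. In GRCh38 with GENCODE release 29 they span chr11:10556966-10611689 (LYVE1, minus strand), chr4:55078259-55125595 (KDR, minus), chr11:124883691-124898500 (ROBO4, minus), chr17:64319415-64413776 (PECAM1, minus), chr10:33177492-33336262 (NRP1, minus), chr2:205681990-205798133 (NRP2, plus), chr17:63477061-63498380 (ACE, plus), chr1:43300993-43323108 (TIE1, plus) and chr9:27109141-27230175 (TEK, plus). ACE and PECAM1 are 821034 bases apart. RefSeq promoter windows (GRCh38.p14) were at hand for 6 of the 9, and not for LYVE1, NRP1 and PECAM1. The 250 bases upstream of the start are shown for TIE1 and KDR, both far higher in HEL under control shRNA, and for ACE, with a smaller difference, all 3 lying wholly upstream of the gene in both annotations. They lie at chr1:43300732-43300981 (plus strand), chr4:55125596-55125845 (minus strand) and chr17:63476811-63477060 (plus strand). Capitals mark GGAAG or its complement CTTCC, a longer form of the GGAA core bound by ETS factors. They also mark GATAA or TTATC, a form of the core bound by GATA factors.
TIE1: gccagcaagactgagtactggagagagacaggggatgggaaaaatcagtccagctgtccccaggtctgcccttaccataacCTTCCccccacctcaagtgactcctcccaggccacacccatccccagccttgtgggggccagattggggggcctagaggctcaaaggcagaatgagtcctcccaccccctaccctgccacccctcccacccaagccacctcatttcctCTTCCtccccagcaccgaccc
KDR: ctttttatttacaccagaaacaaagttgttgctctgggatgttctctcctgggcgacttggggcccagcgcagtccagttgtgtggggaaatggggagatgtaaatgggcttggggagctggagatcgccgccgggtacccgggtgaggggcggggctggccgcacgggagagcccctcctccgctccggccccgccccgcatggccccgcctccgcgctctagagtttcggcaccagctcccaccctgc
ACE: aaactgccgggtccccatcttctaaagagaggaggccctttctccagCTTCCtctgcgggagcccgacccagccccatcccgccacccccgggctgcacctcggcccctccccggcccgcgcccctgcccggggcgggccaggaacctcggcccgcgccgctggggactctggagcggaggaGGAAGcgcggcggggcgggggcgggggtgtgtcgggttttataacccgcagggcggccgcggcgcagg

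The TIE1 window holds GGAAG or CTTCC 2 times, the ACE window 2 times and the KDR window 0 times. At least 1 is held by 65.1% of all 35116 windows of that length. The shorter core GGAA was not counted, and it does occur in the KDR window. None of the 3 windows holds GATAA or TTATC, which 20.4% of all windows hold. Among the windows not shown, that of ROBO4 and a window of TEK hold 1 match each, and both lie inside the gene in GENCODE. GGGCGG or CCGCCC, the letters known as the Sp1 box, occurs 2 times in the KDR window, 4 times in the ACE window and 0 times in the TIE1 window, and in 42.6% of all windows. These are letter matches and show no binding.

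The mRNAs of the 9 genes were compared in the transcript with the longest coding sequence. GC content ran over 42.7% in LYVE1, 44.7% in NRP1, 45.1% in TEK, 47.0% in KDR, 49.3% in PECAM1, 50.4% in NRP2, 59.1% in ROBO4, 60.4% in ACE and 60.8% in TIE1, against a median of 49.6% over the 13218 tested genes with such a transcript. The genes thus spread over both sides of the median, from the 24.6th percentile (LYVE1) to the 86.0th (TIE1). All 9 mRNAs, at 3273 to 6831 bases, were longer than the median of 3060.5 bases. Their 3' untranslated regions ran from 389 bases in TIE1 to 4404 in PECAM1, around a median of 955 bases over all genes. TIE1, the gene at the same level in both HEL groups, had the highest GC content and the shortest 3' untranslated region of the 9, and in MOLM-13 it was among those with the larger folds.

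Overlapping genes could add reads to a member where the counting used no strand, and no source used here gives the strand setting. The antisense genes that share exon bases with ROBO4, NRP1 and NRP2 had 0 or 1 counts summed over each group. A readthrough entry that shares 1997 exon bases with ACE on the same strand also had 0 or 1 counts per group. LYVE1 lies within IRAG1, a gene on the same strand with which it shares no exon base. IRAG1, singled out after its values were seen, had 173 and 173 counts in HEL DDX6 shRNA libraries, against 42 and 34 in HEL control libraries. Its log2 fold change was 2.30 ± 0.18 in HEL (edgeR adjusted p = 1.74e-14) and 0.13 ± 0.34 in MOLM-13 (edgeR adjusted p = 0.819). LYVE1 and the gene around it were thus both higher in HEL with DDX6 shRNA, and the part of unspliced IRAG1 RNA in the LYVE1 counts was not tested.

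The nearest protein-coding gene on each side was taken for every member, 18 genes in all, of which 14 were tested. In HEL, 7 were called higher and 1 lower with DDX6 shRNA, with a median log2 fold change of 0.34, where 34.8% of all genes tested were called in either direction. In MOLM-13, 5 were called higher and 1 lower, with a median of 0.22, where 32.4% of all genes were called. ROBO3, which lies 2220 bases from ROBO4, had 418 and 450 counts in HEL DDX6 shRNA libraries, against 443 and 476 in HEL control libraries (log2 fold change 0.03 ± 0.10, edgeR adjusted p = 0.833). ROBO4 was thus higher in HEL where its closest gene did not pass the test.

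Other neighbours were called. Both genes beside LYVE1 rose in HEL, RNF141 (log2 fold change 0.55 ± 0.10, edgeR adjusted p = 1.23e-05) and CTR9 (0.51 ± 0.07, edgeR adjusted p = 2.41e-08). In MOLM-13, RNF141 had -0.02 ± 0.13 (edgeR adjusted p = 0.959), and CTR9 rose (0.25 ± 0.08), a call lost with MOLM-13 fitted alone (0.23). The CTR9 call was also lost without MOLM-13 control replicate 2 (0.17) or DDX6 shRNA replicate 2 (0.19). PARD3B, beside NRP2, and IFT74, beside TEK, rose less in HEL (0.29 ± 0.09 and 0.32 ± 0.10), calls lost with DESeq2 (0.28 and 0.32). The PARD3B call was also lost without HEL control replicate 1 (0.27) or 2 (0.30) or DDX6 shRNA replicate 1 (0.26). That of IFT74 was also lost without HEL control replicate 2 (0.23) or DDX6 shRNA replicate 1 (0.28). PARD3, a polarity gene beside NRP1, rose in HEL with 56 and 46 counts in DDX6 shRNA libraries, against 17 and 13 in control libraries (log2 fold change 1.87 ± 0.29, edgeR adjusted p = 9.79e-07). ITGB1, the integrin gene on the other side of NRP1, rose in MOLM-13 (0.75 ± 0.09, edgeR adjusted p = 9.41e-09) and had 0.08 ± 0.08 in HEL (edgeR adjusted p = 0.461). CYB561, beside ACE, rose in MOLM-13 with 152 and 145 counts in DDX6 shRNA libraries, against 61 and 63 in control libraries (1.31 ± 0.16, edgeR adjusted p = 1.02e-08). In HEL its log2 fold change was 0.47 ± 0.12 (edgeR adjusted p = 0.00145), and it did not pass without HEL DDX6 shRNA replicate 2 (0.32). KIT, the stem cell factor receptor gene, is a nearest neighbour of KDR at 337543 bases. It rose in HEL with 3982 and 3580 counts against 3059 and 2865 in control (0.47 ± 0.06, edgeR adjusted p = 1.35e-07), close to the 0.49 ± 0.08 of KDR. In MOLM-13, where KDR was not detectable, KIT also rose (0.64 ± 0.24, edgeR adjusted p = 0.0389). That call was lost with DESeq2 (0.65), no filter (0.63) or MOLM-13 fitted alone (0.62). It was also lost without MOLM-13 control replicate 1 (0.61) or 2 (0.68), or DDX6 shRNA replicate 1 (0.44). IFT74 rose in MOLM-13 as well (0.41 ± 0.13), a call also lost with DESeq2 (0.42). The same call was lost without MOLM-13 control replicate 2 (0.37) or DDX6 shRNA replicate 2 (0.27). INO80D, beside NRP2, fell in MOLM-13 by 0.57 on the log2 scale (SE 0.14, edgeR adjusted p = 0.000812). In HEL, where NRP2 was higher, INO80D fell by 0.40 (SE 0.11, edgeR adjusted p = 0.00356), a call lost with DESeq2 (-0.40) and without HEL DDX6 shRNA replicate 1 (-0.30) or HEL control replicate 1 (-0.34).

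**Figure D4:**
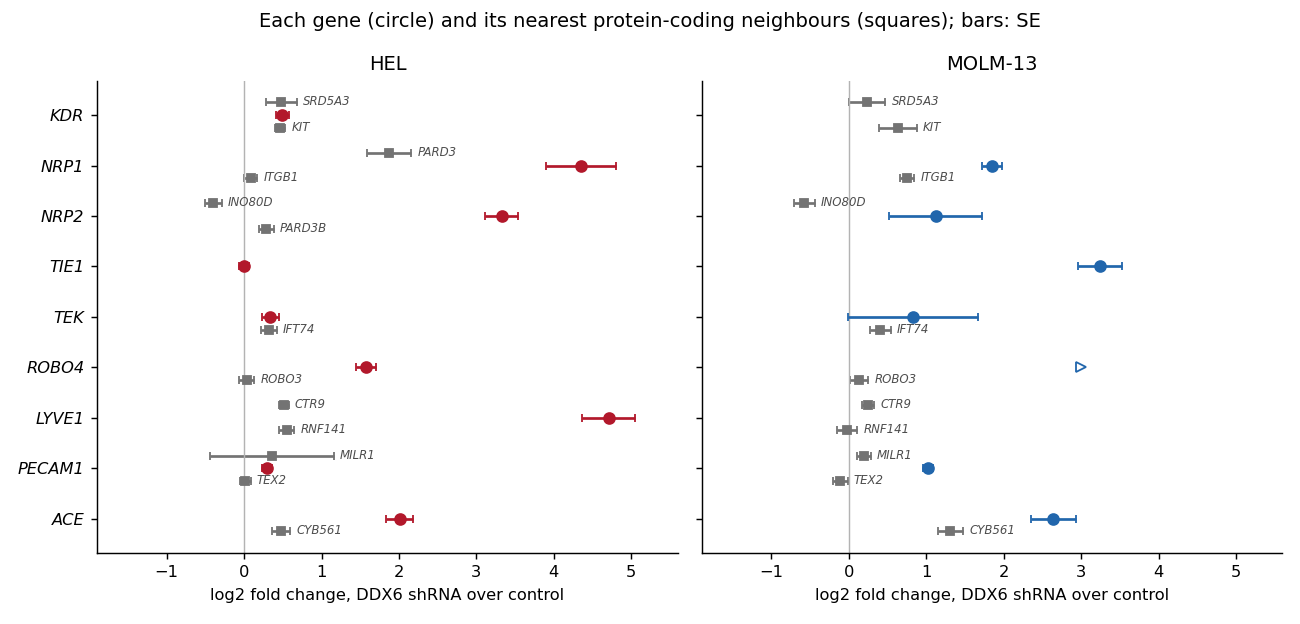
Log2 fold change, DDX6 shRNA over control, of each of the 9 genes and of nearest protein-coding neighbours that were tested and are reported here, in HEL and in MOLM-13; bars are 1 SE, the open triangle is the bound of ROBO4, and genes with 3 counts or fewer in a group are not drawn. ROBO4 stands at 1.58 in HEL beside ROBO3 at 0.03, and KDR at 0.49 beside KIT at 0.47.

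For each of the 9 genes, the 3 tested genes with the most similar pattern over the 8 libraries were found by the root mean square distance of log2 CPM, each gene centred on its own mean. This distance depends on a gene's level and range, so its size is not compared between members. For KDR and TEK the difference between the lines was far larger than that with DDX6 shRNA, and it makes up most of the pattern matched. PECAM1 was closest to SLC35D2 (distance 0.0870), FCGRT (0.0919) and CRYL1 (0.0938). TEK was closest to LINC01366 (0.105), ZNF607 (0.170) and TSPAN7 (0.201), and KDR to TMPRSS3 (0.244), MAGEA1 (0.304) and RHCE (0.308). TIE1 was closest to TMEM163 (0.295), APLNR (0.453) and TGM2 (0.456). NRP2 was closest to HEY1 (0.358), CALCRL (0.488) and FER1L6 (0.498), and LYVE1 to ACCSL (0.454), CALCRL (0.569) and CST9L (0.606). CALCRL was the only gene named for 2 members. ROBO4 was closest to NES (0.476), MAP1A (0.507) and ARHGAP42 (0.513), NRP1 to ADGRA2 (0.429), CD163L1 (0.488) and HLA-DRB5 (0.527), and ACE to CD79B (0.380), GIPC3 (0.436) and CLU (0.438). None of the 9 appeared among the 3 closest genes of another.

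The pathways of these receptors were followed with 4 lists of 102 genes, the ligands, the receptor partners, other endothelial surface markers and the transcription factors of endothelial and blood cells. Of the 75 tested, 31 were called higher and 5 lower in HEL with DDX6 shRNA, or 48.0% in either direction, against 34.8% of all genes tested. In MOLM-13, 26 were called higher and 10 lower, again 48.0%, against 32.4% of all genes tested. The median log2 fold change was 0.27 in HEL and 0.29 in MOLM-13, against 0.03 and 0 over all genes tested in those lines.

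Of 14 ligands tested, 6 were called higher and 2 lower in each line, where 34.8% of all genes tested were called in HEL and 32.4% in MOLM-13. VEGFA, the main ligand of KDR and NRP1, fell in both lines. It had 948 and 914 counts in HEL DDX6 shRNA libraries, against 1598 and 1614 in HEL control libraries (log2 fold change -0.67 ± 0.07, edgeR adjusted p = 5.49e-10). Its MOLM-13 counts were 563 and 565 with DDX6 shRNA, against 966 and 879 in control (-0.66 ± 0.08, edgeR adjusted p = 8.94e-09). ANGPT1, the activating ligand of TEK, rose in HEL (0.75 ± 0.08, edgeR adjusted p = 6.08e-11). There ANGPT2, the context-dependent antagonist of ANGPT1, fell (-0.50 ± 0.13, edgeR adjusted p = 0.00255), a call lost with DESeq2 (-0.50). ANGPT2 was called lower in MOLM-13 too, at 2 and 2 counts against 9 and 9 in control (-2.06 ± 0.67, edgeR adjusted p = 0.0140). The MOLM-13 call was lost without DDX6 shRNA replicate 1 (-2.04) or 2 (-2.06). SEMA3A, a semaphorin ligand of NRP1, rose in HEL (1.51 ± 0.34, edgeR adjusted p = 0.000405) and in MOLM-13 (1.48 ± 0.25, edgeR adjusted p = 7.50e-06). AGT, the precursor of the ACE substrate, rose in MOLM-13 (1.40 ± 0.12, edgeR adjusted p = 1.09e-12), as did SLIT1 and SEMA3F (1.58 ± 0.23 and 1.25 ± 0.19), with SEMA3F at 1.99 without MOLM-13 control replicate 2, while SEMA3C and SEMA3G rose in HEL (0.78 ± 0.12 and 0.56 ± 0.12).

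Of 18 receptor partners tested, 6 were called higher and 1 lower in HEL, and 8 higher and 1 lower in MOLM-13. Over all genes tested, 34.8% were called in HEL and 32.4% in MOLM-13. The HEL count of receptor partners is near that share and nothing is read from it. The median log2 fold change of the receptor partners was 0.15 in HEL and 0.37 in MOLM-13. The 4 with the smallest adjusted p among the higher calls in HEL were CD44, another hyaluronan receptor (0.58 ± 0.07, edgeR adjusted p = 1.34e-08), PLXNA4, a plexin that signals with neuropilins (0.76 ± 0.10), FLT4, the VEGF receptor of lymphatic endothelium (0.49 ± 0.08), and STAB1 (0.48 ± 0.09). In MOLM-13 they were PLXND1 (0.92 ± 0.07, edgeR adjusted p = 2.94e-15), PLXNA1 (0.61 ± 0.09), UNC5B, a partner of ROBO4 (2.91 ± 0.44, from 28 and 31 counts with DDX6 shRNA against 2 and 6 in control), and PLXNA3 (0.89 ± 0.15). Without MOLM-13 control replicate 2, UNC5B stood at 3.87. HMMR was the 1 lower call in both lines (-0.20 ± 0.07 in HEL, -0.27 ± 0.09 in MOLM-13). In HEL it was lost with DESeq2 (-0.20) and without any 1 HEL library (-0.24 to -0.15), and in MOLM-13 with DESeq2 (-0.26) and without control replicate 1 (-0.10) or DDX6 shRNA replicate 1 (-0.22) or 2 (-0.30).

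Of 21 other endothelial surface markers tested, 9 were called higher and 1 lower in HEL, against 34.8% of all genes tested in either direction. In MOLM-13, 8 of these markers were called higher and 1 lower, against 32.4% of all genes tested. Their summed level was 1150 to 1181 CPM in HEL DDX6 shRNA libraries and 907 to 920 CPM in HEL control libraries, and 494 to 497 CPM with DDX6 shRNA and 413 to 420 CPM in control in MOLM-13. CD34, a surface marker of endothelium and blood progenitors, rose in HEL (1.45 ± 0.11, edgeR adjusted p = 2.19e-14), as did ACVRL1 (1.38 ± 0.18), ESAM (0.43 ± 0.06) and MMRN1 (0.55 ± 0.08), and APLNR, the apelin receptor gene, fell (-0.77 ± 0.09, edgeR adjusted p = 2.43e-09). In MOLM-13, EGFL7 (2.79 ± 0.22, edgeR adjusted p = 4.21e-14), ENG (0.92 ± 0.09), MMRN2 (3.07 ± 0.49) and ACVRL1 (0.91 ± 0.15) rose, with MMRN2 at 3.66 without control replicate 1. THBD fell in MOLM-13 (-0.62 ± 0.23), a call lost with DESeq2 (-0.61) and without control replicate 1 (-0.39) or DDX6 shRNA replicate 1 (-0.62) or 2 (-0.60).

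Single endothelial markers differed widely in level. In HEL, ESAM stood at 590 CPM with DDX6 shRNA and 437 CPM in control and EGFL7 at 181 CPM with DDX6 shRNA and 162 CPM in control, while others were at or near 0. CDH5, the endothelial cadherin gene, had 81 and 81 counts in HEL DDX6 shRNA libraries, against 74 and 67 in HEL control libraries (edgeR adjusted p = 0.202). Its MOLM-13 counts were 0 and 2 with DDX6 shRNA and 1 and 0 in control. CLDN5 had 1 and 1 counts in HEL with DDX6 shRNA, against 3 and 1 in HEL control, and in MOLM-13 it had 4 and 4 with DDX6 shRNA, against 0 and 1 in control. CLEC14A was at 0 in all HEL libraries and MMRN1 at 0 in all MOLM-13 libraries. VWF, shared with megakaryocytes, had 20 and 17 counts in HEL DDX6 shRNA libraries, against 3 and 1 in HEL control libraries (log2 fold change 3.23 ± 0.57, edgeR adjusted p = 1.41e-05), but 15 and 14 counts with DDX6 shRNA and 18 and 22 in control in MOLM-13. Of genes of stromal and epithelial cells, 4 of 9 tested were called higher and 1 lower in each line. Over all genes tested, 34.8% were called in HEL and 32.4% in MOLM-13. The stromal and epithelial list summed to 87.4 to 95.1 CPM with DDX6 shRNA and 68.4 to 74.4 CPM in control in HEL. In MOLM-13 it summed to 49.2 to 53.6 CPM with DDX6 shRNA and 37.2 to 41.5 CPM in control, and DCN was at 0 in HEL. The median log2 fold change of the stromal and epithelial genes tested was 1.01 in HEL and 0.70 in MOLM-13. Over the 4 partner lists it was 0.27 and 0.29. ACTA2 (1.10 ± 0.40 in HEL, 0.99 ± 0.15 in MOLM-13) and PDGFRB (1.01 ± 0.19 and 0.98 ± 0.31) were called higher in both lines. The genes called were not all the same in the 2 lines. COL1A1 was called higher in HEL only (2.79 ± 0.47, against -0.46 ± 0.33 in MOLM-13), and COL3A1 lower in MOLM-13 only (-1.52 ± 0.34, against 1.10 ± 0.53 in HEL). The part of any other cell type in the values of the 9 genes was not tested.

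Of 22 transcription factors tested, 10 were called higher and 1 lower in HEL, against 34.8% of all genes tested in either direction. In MOLM-13, 4 of these factors were called higher and 6 lower, against 32.4% of all genes tested. With DESeq2, 5 of the factors were called higher in HEL. HEY1, a target of Notch, had 74 counts over both HEL DDX6 shRNA libraries and 3 over both HEL control libraries, a ratio of 26.7 (exact 95% interval 8.80 to 132.6; edgeR adjusted p = 1.49e-09), and at 1 and 0 counts it was not detectable in MOLM-13. MEF2C (0.57 ± 0.07), ETS1 (0.44 ± 0.06, edgeR adjusted p = 8.31e-08) and the hypoxia factor EPAS1 (1.54 ± 0.26, and 2.15 without control replicate 1) rose in HEL too. RUNX1 fell in HEL (-0.17 ± 0.06), a call lost without HEL DDX6 shRNA replicate 1 (-0.11) or HEL control replicate 1 (-0.20) or 2 (-0.13). In MOLM-13, LMO2 (0.46 ± 0.07, edgeR adjusted p = 2.11e-07), ETV6 (0.43 ± 0.07) and ETS1 (0.73 ± 0.14) rose, and EPAS1 rose (1.09 ± 0.32), a call lost with DESeq2 (1.11) and without DDX6 shRNA replicate 1 (1.03) or control replicate 2 (0.85). GATA2, which binds many genes shared by endothelium and blood progenitors, fell in MOLM-13 (-0.94 ± 0.12, edgeR adjusted p = 1.13e-08), as did HHEX (-0.79 ± 0.11) and ETS2 (-0.63 ± 0.09). RUNX1 was called lower in MOLM-13 too (-0.18 ± 0.07, edgeR adjusted p = 0.0368), a call lost with DESeq2 (-0.17). RLE scaling (-0.17), no filter (-0.18), a replicate block (-0.18) and MOLM-13 fitted alone (-0.19) each ended that call as well. So did dropping any 1 HEL library (-0.18 each time) or either knockdown library of MOLM-13 (-0.17 and -0.16). KLF4 also fell there (-0.37 ± 0.13), a call lost with DESeq2 (-0.36) and without control replicate 1 (-0.27) or DDX6 shRNA replicate 1 (-0.34) or 2 (-0.38).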

How the data were processed

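Gene counts came from 2 tables deposited by the authors, 1 for HEL and 1 for MOLM-13, each with 4 libraries. Per the labels' protocols, cells were grown in RPMI with serum, infected with shRNA lentivirus and kept in puromycin, RNA was isolated with a miRNeasy Micro kit, and NEBNext Ultra II RNA kits gave the libraries. The submitters' processing notes name GRCh38, STAR, SAMtools 1.12 and DESeq2, without roles. The counter, its annotation and its strand setting were not given in the sources used here. What the authors deposited are raw counts per gene, whole numbers without normalization or pooling, and 0 columns were unused.

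All 8 libraries entered 1 edgeR 4.0.16 model (R 4.3.3) with 1 mean per group. Genes were kept by filterByExpr (minimum count 10), which left 16499, libraries were scaled by TMM, and glmQLFTest p-values were adjusted by Benjamini-Hochberg over all tested genes, with a call at 0.05. The SE is the absolute log2 fold change over the square root of F. A group at 0 counts was set to a floor of 3 counts, and ratios with 1 to 3 counts carry an exact 95% interval for counting error only. TPM, positions and mRNA features used GENCODE 29, which matched 56982 of the 61544 entries and 99.8% of counts. The log2 CPM for nearest patterns used a prior count of 2. The scripts were tested on simulated data. No replicate pair was identical or within sampling noise. The spread of replicate counts, as chi-square per degree of freedom, was 3.69 in MOLM-13 control, against 1.46 to 1.77 in the other groups.

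The 9 genes and all lists were chosen with earlier results of these data known. Genes named are DDX6, the 9 genes, up to 4 called genes per partner list, line and direction with the smallest adjusted p, the nearest protein-coding neighbours and the 3 nearest patterns per gene. Markers of endothelium that define the cell type, and IRAG1, were added to these. Alternatives were RLE and upper-quartile scaling, no filter, a replicate block, each line alone, DESeq2 1.42.0 and leaving out each library in turn. A result for 1 named gene is not reported here.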

Additional observations from a re-analysis of the deposited data

Results flagged for a closer look

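Differences between the lines in their response to DDX6 shRNA were tested for the named partner genes and neighbours with edgeR's interaction term, and those with a Benjamini-Hochberg adjusted p under 0.05 are given as the MOLM-13 log2 fold change minus the HEL log2 fold change. The differences of the 9 endothelial-type genes were not tested, since they were chosen on these contrasts.

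Among the ligands, the difference was -0.77 for ANGPT1 and 2.52 for SLIT1. Among the receptor partners it was 0.74 for PLXND1, 2.96 for UNC5B, 0.70 for PLXNA3 and -0.29 for CD44. Among the surface markers it was 2.62 for EGFL7, 2.82 for MMRN2, 0.79 for ENG and -1.53 for THBD. APLNR gave 4.38, a fitted value that rests on 14 counts with DDX6 shRNA against 1 in control in MOLM-13, a ratio of 14.5 (2.21 to 614), and so depends on the prior count. Among the transcription factors it was -0.99 for GATA2, -0.61 for HHEX, -0.51 for ETS2, -0.43 for MEF2C and 0.33 for ETV6. Among the neighbours it was -0.57 for RNF141, beside LYVE1, 0.67 for ITGB1, beside NRP1, and 0.84 for CYB561, beside ACE.

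Some of these did not pass when 1 library was left out. Without MOLM-13 DDX6 shRNA replicate 1 this held for HHEX (-0.38), MEF2C (-0.31), RNF141 (-0.46), PLXNA3 (0.69), ETV6 (0.35) and CD44 (-0.18), and without MOLM-13 DDX6 shRNA replicate 2 for ANGPT1 (-0.62) and CD44 (-0.30). Without MOLM-13 control replicate 1 it held for ANGPT1 (-0.59) and THBD (-1.26). Without HEL DDX6 shRNA replicate 1 it held for RNF141 (-0.52), PLXNA3 (0.58), THBD (-1.41), ETV6 (0.32) and CD44 (-0.31), and without replicate 2 for ETV6 (0.34) and CD44 (-0.27). Without HEL control replicate 1 it held for THBD (-1.43), ETV6 (0.34) and CD44 (-0.33), and without replicate 2 for PLXNA3 (0.64), ETV6 (0.33) and CD44 (-0.25). Without MOLM-13 control replicate 1, APLNR stood at 7.02 and MMRN2 at 3.44, and without MOLM-13 control replicate 2, APLNR stood at 3.54 and UNC5B at 3.96, all past the threshold.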

How the results depend on the processing

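No called result reversed under any alternative run. With DESeq2, the partner genes called lower numbered 3 in HEL, against 5 (higher 23, against 31), and 5 in MOLM-13, against 10, and the neighbours called numbered 0 lower in HEL, against 1, and 3 higher in MOLM-13, against 5. With each line fitted alone, 3 neighbours were called higher in MOLM-13. With 1 library left out, partner genes called lower ranged from 3 to 7 in HEL and from 4 to 12 in MOLM-13, neighbours from 0 to 1 lower in HEL and from 2 to 5 higher in MOLM-13, and the 9 genes from 7 to 8 higher in HEL, with 5 in MOLM-13 each time. In those fits the lone library of a group is assumed to vary like the other groups. The cause was not tested. Over all genes, calls in HEL numbered 3417 higher and 2322 lower, against 2178 and 1383 with DESeq2, and 2216 higher without HEL control replicate 2; the lower calls were 1503 without HEL control replicate 1, 1507 without replicate 2 and 1551 without HEL DDX6 shRNA replicate 1. In MOLM-13, 2358 lower calls became 1405 with DESeq2, and 1471 or 1433 without DDX6 shRNA replicate 1 or 2. Upper-quartile scaling moved the median over all genes of the control comparison to -0.12, where PECAM1 stayed lower in HEL under every alternative (-0.45 to -0.27). Among the 9 genes, the calls lost were those of TEK in HEL, of NRP2 between controls and, with MOLM-13 fitted alone, of ROBO4 in MOLM-13, which that fit filtered out. Depth limits LYVE1, KDR, NRP2, TEK and ROBO4 in MOLM-13.

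Replicate numbers did not pair the libraries: deviations of same-numbered libraries correlated at 0.0504 in HEL and -0.0399 in MOLM-13 over 16499 genes. With a replicate block, 8 of the 9 genes were called higher in HEL, 5 in MOLM-13 and 6 between controls, as without it, and the partner genes called lower numbered 4 in HEL and 9 in MOLM-13. DDX6 stood at -0.90 in HEL and -0.80 in MOLM-13, and over all genes HEL calls numbered 3157 higher and 2096 lower. The block ended the calls of HMMR in HEL, of RUNX1 in MOLM-13 and of the CD44 difference between the lines.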
